A study of Macaca fascicularis
Homo sapiens with 2 samples.

Results

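Cells that carried at least 1 UMI (unique molecular identifier, a count of 1 captured RNA molecule) of DLL1 on day 7 of neural induction were compared with cells of the same species in which no DLL1 UMI was counted. These cells were chosen by their measured DLL1 count and by nothing else than the cell filters below, so the DLL1 values given here describe them and are no finding. Of 14276 human and cynomolgus cells at day 7, 3037 met this rule: 1245 of 7974 human cells and 1792 of 6302 cynomolgus cells. Both days of the series together held 21216 such cells. A cell was called human when at least 90% of its UMIs were on the human genome, and cynomolgus when at most 10% were. It also had to hold at least 2000 UMIs and 500 detected genes, with at most 20% of its UMIs from mitochondrial genes.

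The study measured single-cell RNA in 1 droplet library at day 0, of pluripotent cells, and 1 at day 7, after 7 days in SB431542 (10 µM, an inhibitor of activin and NODAL receptors) and LDN193189 (100 nM, an inhibitor of BMP receptors). Each library was a pool of human H9 embryonic stem cells and of 56A1 induced pluripotent stem cells of the cynomolgus macaque (Macaca fascicularis), mixed in equal amounts. All cells of both species and both days carried a knockout of UGP2, the enzyme that makes UDP-glucose, so every value below belongs to knockout cells and none to a wild type. There was 1 line per species and 1 library per day, so no difference below has a replicate check; intervals are exact 95% intervals that cover counting error only, and they do not account for spread between cultures. UGP2 transcript stood at 86.7 CPM (a gene's UMIs per 1000000 own-species UMIs) in DLL1-positive human cells and 83.9 CPM in their comparison cells, and at 75 and 77.4 CPM in the cynomolgus cells, which does not check the knockout because no wild-type cells were measured here.

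The day 7 library held 16403 barcodes and 99430745 UMIs, and the day 0 library 12093 barcodes and 71377836 UMIs. At day 7, 15729 barcodes passed the limits on UMIs, genes and mitochondrial share, and 1453 of these were neither human nor cynomolgus by the rule. The libraries shared 50 barcode sequences.

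DLL1 (delta like canonical Notch ligand 1) is a membrane protein that binds Notch receptors on a neighbouring cell, which releases the receptor's intracellular domain to act with RBPJ on target genes of the HES and HEY families. In the embryonic neural tube, progenitors that raise proneural factors such as NEUROG2 switch on DLL1, leave the cell cycle and become neurons, while Notch targets such as HES1 and HES5 keep their neighbours dividing. DLL1 is also made by cycling progenitors and by cells of the paraxial mesoderm, so the transcript alone does not name a stage.

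The share of DLL1-positive cells was 15.6% (14.8 to 16.4%) in human cells and 28.4% (27.3 to 29.6%) in cynomolgus cells at day 7. At day 0 it was 3.51% (3.01 to 4.06%, 173 of 4927) and 0.795% (0.455 to 1.29%, 16 of 2013). The summed level of DLL1 was 32.9 CPM (31.2 to 34.7) in human and 73.4 CPM (70.6 to 76.3) in cynomolgus cells at day 7, against 5.35 and 1.5 CPM at day 0. As a measure of free RNA and of reads placed on the wrong genome, a UMI on the other species' DLL1 copy was found in 46 human cells (0.577%, 0.423 to 0.769%) and in 42 cynomolgus cells (0.666%, 0.481 to 0.900%) at day 7. The median number of own-species UMIs was 4820.5 in human and 4681.5 in cynomolgus cells, so the share on the own copy was far above that background in cells of like depth.

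Detection followed depth. With the cells ordered by UMIs into 5 groups of equal size, the human group with the fewest UMIs (median 3317) and that with the most (median 8956) were compared, and the DLL1-positive share went from 11.0 to 25.2%, while the summed DLL1 level went from 41.4 to 31.7 CPM. In cynomolgus cells the same share went from 21.1% (median 3078.5 UMIs) to 46.4% (median 9989 UMIs), with 96.8 and 72.2 CPM. If every cell is thinned to 2000 own-species UMIs, the expected share is 6.39% in human cells and 13.3% in cynomolgus cells, leaving out 32 and 57 shallower cells, and 1.15 and 0.280% at day 0. The cynomolgus share stayed above the human share at the thinned depth. A cell without a DLL1 UMI is therefore not a cell without DLL1 transcript, and the comparison groups are a mixture.

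Most positive cells carried a single UMI, which sits just inside the rule, with the zero cells just outside it. Among DLL1-positive human cells 1084 had 1 UMI, 141 had 2, 17 had 3 and 3 had more, up to 5. Among the cynomolgus cells 1259 had 1 UMI, 386 had 2, 105 had 3 and 42 had more, up to 6. Cells with 2 or more UMIs made up 12.9% of the human and 29.7% of the cynomolgus DLL1-positive cells.

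**Figure D1:**
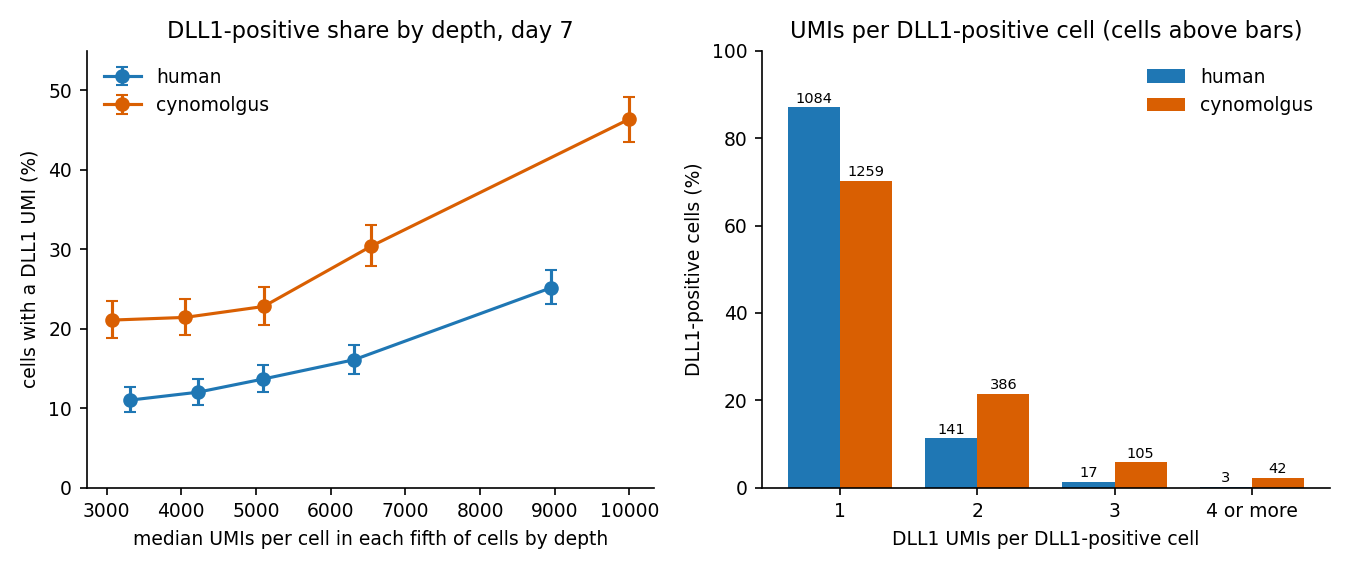
Left, percent of day 7 cells with an own-species DLL1 UMI (y) against the median total UMIs (x) of 5 equal groups of cells ordered by depth, human and cynomolgus, with exact binomial 95% intervals. Right, percent of DLL1-positive cells by their number of DLL1 UMIs, with the number of cells above each bar: the share rises with depth in both species, to 25.2% and 46.4% in the deepest group, and cells with 1 UMI are the largest class.

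Because of this dependence, each DLL1-positive cell was paired with a DLL1-zero cell of its species whose total UMIs differed by at most 5%. All 1245 human cells and 1775 of the 1792 cynomolgus cells found a partner, and the 17 without one are left out of what follows. The paired groups had nearly the same median UMIs (5805 and 5802 in human, 6020 and 6017 in cynomolgus cells), against 5002 and 4859 in all DLL1-zero cells. They also had nearly the same median detected genes (2898 and 2902, 3165 and 3179), mitochondrial share (3.7 and 3.8%, 2.18 and 2.20%) and share of UMIs on the other genome (1.16 and 1.17%, 5.96 and 5.95%).

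Across all genes, DLL1-positive and paired cells were close to each other in both species. A gene was counted as different when its summed CPM was at least 1.5-fold apart on the log2(CPM + 1) scale, with a mean of at least 10 CPM. In human cells 4 of 9629 genes (0.0415%) were higher in DLL1-positive cells and 7 (0.0727%) were lower. In cynomolgus cells 5 of 9201 genes (0.0543%) were higher and 13 (0.141%) were lower. The median log2 ratio over all tested genes was 0.00 in human cells, with 90% of genes between -0.23 and 0.21, and -0.01 in cynomolgus cells, with 90% between -0.19 and 0.18.

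The human genes past 1.5-fold were DACH2, HSPA4L, RAMAC and RNF19B on the higher side, and ASB8, MACC1, MPPED1, NPAS2, PAQR8, SLC66A3 and SYNE1 on the lower side. None of these 11 was past 1.5-fold with a second set of partner cells, nor when all DLL1-zero cells were used with weights for depth; the latter gave 0 genes in either direction. The cynomolgus genes were GRM3, HS3ST5, NPPB, TAGLN3 and ZNF565 on the higher side, and ACTC1, CYP1B1, DBX1, ENSMFAG00000043037, FREM1, KRT19, NTN1, PAPPA, PRM2, SEMA3E, SYTL5, THSD4 and WFDC2 on the lower side. Of these 18, GRM3, HS3ST5, TAGLN3, DBX1, FREM1, PAPPA and PRM2 were past 1.5-fold in both of those alternatives.

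Proneural transcription factors, which start the neuronal programme, were rare in both groups, and NEUROG2 accounted for most of the human difference. In human cells 42 NEUROG2 UMIs were counted in 36 DLL1-positive cells (2.89%, 2.03 to 3.98%), against 12 UMIs in 11 paired cells (0.884%, 0.442 to 1.58%). Of the 112 human day 7 cells with a NEUROG2 UMI, 36 also carried DLL1 (32.1%, 23.6 to 41.6%), against 15.6% of all human cells; their median depth was 5319.5 UMIs. At least 1 UMI of any of 12 proneural factors was found in 45 DLL1-positive cells (3.61%, 2.65 to 4.81%), in 18 paired cells (1.45%, 0.859 to 2.28%) and in 113 of all 6729 DLL1-zero cells (1.68%). Without NEUROG2 the numbers were 11 and 7 cells. The log2 ratio of NEUROG2 was 1.32, a level below the 10 CPM limit. It was above 0 in every alternative setting run for it and ranged from 0.49, with the second set of partner cells, to 1.84, with at least 2 DLL1 UMIs.

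In cynomolgus cells the proneural factors were at the limit of detection. Any of the 7 factors with a symbol in that annotation was found in 3 of 1775 DLL1-positive cells (0.169%) and in 0 of 1775 paired cells, which allows a share of cells with a UMI of up to 0.169% (a limit of 3 counts). NEUROG2 itself had 1 UMI on the cynomolgus copy. On the human copy, where a misplaced cynomolgus read would be counted, the same cells held 6 NEUROG2 UMIs, against 2 in paired cells. NEUROG3, ATOH1, ATOH7 and NEUROD2 were among the factors that had no symbol in the cynomolgus annotation and were not measured there, so the species cannot be compared for them.

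The 36 human cells with both DLL1 and NEUROG2 were too few for narrow intervals, and their levels are given as a description. HES6, which opposes HES1 and favours neuronal differentiation, stood at 65 CPM (36.4 to 107), against 16 CPM in the other DLL1-positive human cells. JAG1, a Notch ligand of the Jagged family, stood at 95.3 CPM (59.7 to 144) against 40.4, DLL3, a divergent ligand that acts inside the cell, at 47.7 CPM (23.8 to 85.3) against 23.9, and GADD45G, a growth-arrest gene, at 26.0 CPM (9.54 to 56.6, from 6 UMIs) against 2.35 CPM. In the 76 human cells with NEUROG2 and no DLL1 UMI, HES6 stood at 14 CPM (5.15 to 30.6), JAG1 at 46.8 CPM (28.6 to 72.3), DLL3 at 51.5 CPM (32.3 to 77.9) and GADD45G at 9.36 CPM (2.55 to 24), so the DLL3 level was like that of the NEUROG2 cells with DLL1. SOX2, a factor of neural progenitors, was at like levels in the 36 cells and in the other DLL1-positive human cells (477 and 459 CPM). HES1 was at 56.3 against 82.7 CPM in these groups, and at 51.5 CPM (32.3 to 77.9) in the 76 cells with NEUROG2 and no DLL1 UMI. The neuronal genes DCX and STMN2 had 1 and 2 UMIs in the 36 cells. That is 4.33 and 8.67 CPM, against 19.2 and 1.44 CPM in the other DLL1-positive human cells. Of lists described below, the neuron list summed to 2340 CPM (2147 to 2546) in the 36 cells, against 1769 CPM (1740 to 1799). The commitment list stood at 1894 (1720 to 2080) against 1654 CPM, and the S phase list at 2977 (2758 to 3208) against 3822 CPM. In the 76 cells with NEUROG2 and no DLL1 UMI the same lists stood at 1926, 1848 and 3741 CPM. Without every cell that held a NEUROG2 UMI, the median log2 ratio of the commitment genes described next was 0.10 in human cells.

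Genes of neurogenic commitment, which are switched on as progenitors leave the cycle, stood slightly above the paired cells in both species. In human cells 6 of the 18 genes on this list reached 10 CPM, all 6 had ratios above 0, none passed 1.5-fold, and their median log2 ratio was 0.10. In cynomolgus cells, where 13 of the 18 had a symbol and SOX4 and SOX11 did not, 5 reached 10 CPM, all 5 were above 0, TAGLN3 passed 1.5-fold, and the median was 0.30. The list was drawn up with earlier results of these libraries known, so its direction is not independent evidence.

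TAGLN3, an actin-associated protein of the transgelin family made mainly in neurons, had the highest ratio of the commitment genes at 10 CPM in both species. It stood at 21.9 CPM in DLL1-positive cynomolgus cells (245 UMIs) and 12.1 CPM in paired cells (134 UMIs), a log2 ratio of 0.81, with a counting interval of 1.46 to 2.25 for the ratio itself. In human cells it stood at 19.4 and 13.5 CPM (153 and 106 UMIs), a log2 ratio of 0.49 (ratio 1.12 to 1.86), which is under 1.5-fold. TAGLN3 UMIs were found in 11.8% (10.3 to 13.4%) against 6.87% (5.74 to 8.15%) of cynomolgus cells and in 11.6% (9.92 to 13.6%) against 8.03% (6.58 to 9.68%) of human cells, while the other species' copy was found in 0.161% of DLL1-positive human and 0.282% of DLL1-positive cynomolgus cells. Over the alternative settings its log2 ratio ran from 0.77 to 2.09 in cynomolgus and from 0.25 to 1.09 in human cells.

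The other commitment genes were closer to level. HES6 stood at 17.4 against 13.5 CPM in human (log2 ratio 0.34, ratio 0.993 to 1.68) and at 28.6 against 24.3 CPM in cynomolgus cells (0.22, 0.996 to 1.39). SRRM4, a splicing factor for neuronal microexons, stood at 25.4 against 22.8 CPM (0.15) and at 34.0 against 25.9 CPM (0.38, ratio 1.13 to 1.54). EBF1, a helix-loop-helix factor of early neurons, stood at 56.2 against 45.3 CPM in cynomolgus cells (0.30, ratio 1.10 to 1.40) and under 10 CPM in human cells, with 76 and 52 UMIs. Among other list members under 10 CPM in human cells, MYT1 had 50 against 65 UMIs and ST18 3 against 8. EBF3 had 21 against 10, RUNX1T1 37 against 35, NHLH2 19 against 18 and NHLH1 6 against 2. SOX4 and SOX11, broadly expressed factors of differentiating neural cells, were nearly level in human cells (713 and 691 CPM, and 688 and 668 CPM).

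Genes of differentiated neurons were nearly level in human cells and slightly higher in DLL1-positive cynomolgus cells. Summed over the neuron list, the CPM ratio was 1.02 (0.998 to 1.05) in human and 1.12 (1.08 to 1.15) in cynomolgus cells. The median log2 ratio of the neuron list was 0.06 in human cells, over 9 genes of which 7 were above 0, and 0.08 in cynomolgus cells, over 13 genes of which 10 were above 0; none passed 1.5-fold. MAP2, a microtubule protein of dendrites, stood at 552 against 530 CPM in human and 208 against 175 CPM in cynomolgus cells (log2 ratio 0.25, ratio 1.12 to 1.27). DCX, a microtubule protein of migrating neurons, stood at 18.8 against 16.2 CPM in human cells. LHX5, a LIM homeobox factor of early neurons and of the diencephalon, stood at 78.9 against 59.2 CPM in cynomolgus cells (0.41, ratio 1.2 to 1.48) and at 14.6 against 13.6 CPM in human cells. STMN2, a neuron-specific tubulin-binding protein, had 13 and 6 UMIs in human and 3 and 8 UMIs in cynomolgus cells.

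**Figure D2:**
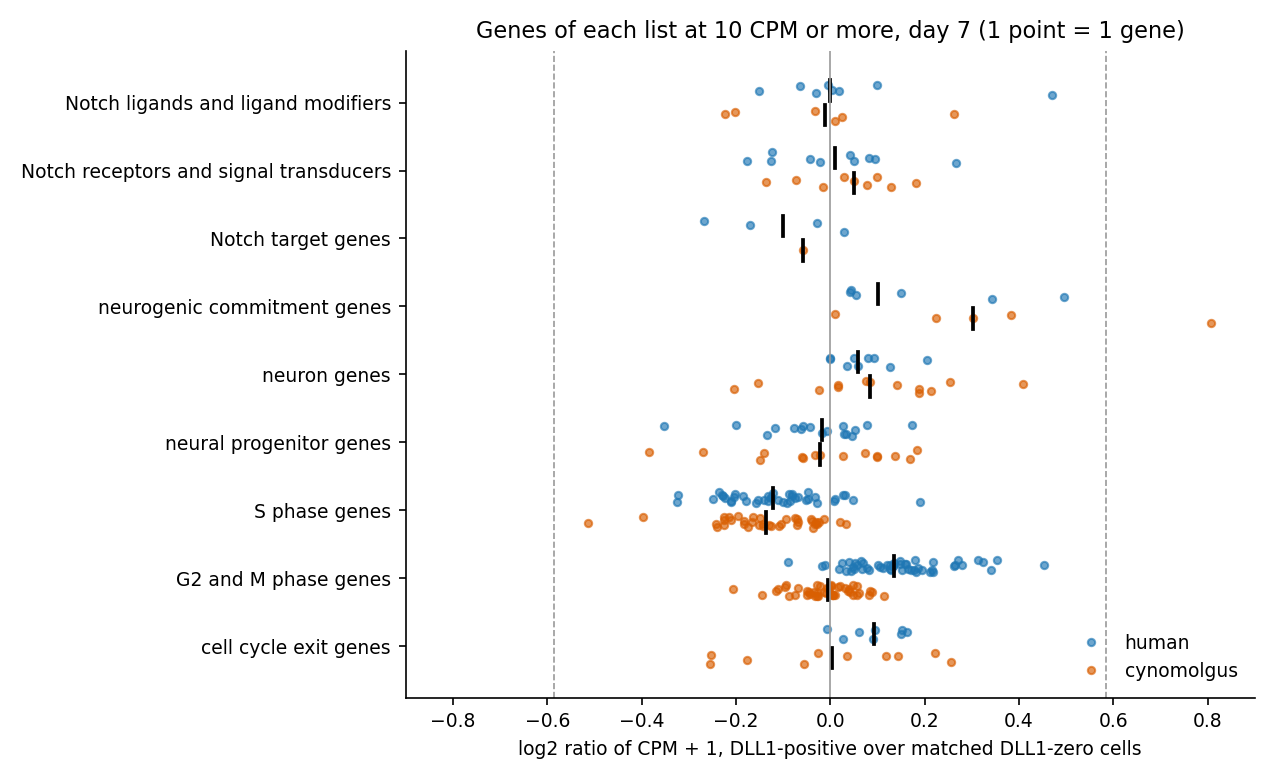
Log2 ratio of CPM + 1, DLL1-positive over paired DLL1-zero cells, for each gene at 10 CPM or more (points) by gene list, human and cynomolgus, with the list median as a black bar and 1.5-fold as dashed lines. Commitment genes lie above 0 in both species (medians 0.10 and 0.30), S phase genes lie mostly below 0, and the median of the G2 and M phase genes is 0.13 in human and -0.01 in cynomolgus cells.

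Progenitor genes were near level between the groups. The median log2 ratio of the progenitor list was -0.02 in both species, with 7 of 17 human and 7 of 15 cynomolgus genes above 0. SOX2 stood at 459 against 449 CPM in human and 176 against 167 CPM in cynomolgus cells, and PAX6, a homeobox factor of the neural plate and forebrain, at 52.9 against 46.8 and 110 against 97.7 CPM (log2 ratio 0.17 in both). NES, an intermediate filament of neural progenitors, was slightly lower in both species (log2 ratios -0.20 and -0.15). OTX2, a forebrain and midbrain homeobox factor, stood at 17.1 against 22.1 CPM in human cells (-0.35), and FABP7, a fatty-acid-binding protein of radial glia, at 10.3 against 13.7 CPM in cynomolgus cells (-0.38). In cynomolgus cells 42.7% of all SOX2 UMIs, 45.5% of all PAX6 UMIs and 18.6% of all FABP7 UMIs lay on the human copy of the gene, so these levels understate the transcript.

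Genes of DNA replication were slightly lower in DLL1-positive cells of both species. The S phase list had a median log2 ratio of -0.12 in human cells, with 35 of 41 genes below 0, and of -0.14 in cynomolgus cells, with 36 of 38 below 0. Summed over the list, the CPM ratio was 0.923 (0.908 to 0.937) in human and 0.928 (0.917 to 0.939) in cynomolgus cells. WDR76, a cell-cycle-regulated protein of DNA damage response, was among the lowest in both (33.8 against 42.5 CPM, -0.32, and 9.11 against 13.4 CPM, -0.51), with 50.7% of its UMIs in cynomolgus cells on the human copy. With the second set of partner cells the cynomolgus log2 ratio of WDR76 was 0.27. PCNA, the sliding clamp of DNA polymerase, stood at 221 against 262 CPM in cynomolgus cells (-0.24, ratio 0.801 to 0.892) and at 110 against 123 CPM in human cells (-0.16). RFC5, a subunit of the clamp loader, stood at 32.7 against 46.3 CPM in human cells (-0.49, ratio 0.60 to 0.831), and ASF1B, a histone chaperone of replication, had a log2 ratio of -0.48. Over the alternative settings the human log2 ratio of RFC5 ran from -0.63 to -0.07 and that of ASF1B from -0.84 to -0.10.

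Genes of G2 and mitosis were slightly higher in DLL1-positive human cells and level over all cynomolgus pairs, a difference between species that was not tested. In cynomolgus cells with at least 3 DLL1 UMIs the summed ratio was 1.11, the same as over all human pairs. Their median log2 ratio was 0.13 in human cells, with 49 of 52 genes above 0 and a summed CPM ratio of 1.11 (1.09 to 1.12). In cynomolgus cells it was -0.01, with 21 of 46 above 0 and a summed ratio of 0.998 (0.990 to 1.01). HMMR, a spindle-associated receptor, stood at 84.5 against 61.5 CPM in human cells (0.45, ratio 1.22 to 1.55) and at 113 against 123 CPM in cynomolgus cells (-0.11). CDC20, an activator of the anaphase-promoting complex, stood at 120 against 95.5 CPM in human cells (0.32), and KIF20A, a mitotic kinesin, had a log2 ratio of 0.53 there. No gene of either cell-cycle list passed 1.5-fold.

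Inhibitors of the cycle were close to level. The cell-cycle exit list had a median of 0.09 in human cells, with 7 of 8 genes above 0, and of 0.00 in cynomolgus cells, with 5 of 10 above 0. CDKN1C, an inhibitor of cyclin-dependent kinases, had log2 ratios of 0.09 and 0.22, and CCNG2, a cyclin of resting cells, of 0.16 and 0.26. GADD45G, CDKN2C and CDKN2D were counted 24 against 7, 18 against 5 and 58 against 57 times in human cells, under the 10 CPM limit.

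By their list medians, the other genes of the Notch pathway were level with the paired cells. Ligands and ligand modifiers had a median log2 ratio of -0.00 over 8 human genes and -0.01 over 6 cynomolgus genes, and receptors and signal transducers 0.01 over 10 and 0.05 over 9. None of these genes passed 1.5-fold over all pairs in either species. The summed CPM ratio of the ligand list was 1.01 (0.987 to 1.03) in human and 0.895 (0.879 to 0.910) in cynomolgus cells. For the receptor list it was 1.03 (0.996 to 1.06) and 1.04 (1.02 to 1.07). DLK1 held 19065 of the 24699 cynomolgus ligand-list UMIs in DLL1-positive cells and 22052 of 27353 in paired cells. In cynomolgus cells with 1, 2 and at least 3 DLL1 UMIs the ligand ratio was 0.922, 0.865 and 0.782.

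JAG1 was the ligand with opposite signs in the species. It stood at 42.0 against 30.0 CPM in human cells (log2 ratio 0.47, ratio 1.18 to 1.66) and at 51.1 against 58.9 CPM in cynomolgus cells (-0.20, ratio 0.773 to 0.971). In cynomolgus cells 36.4% of all JAG1 UMIs lay on the human copy, which held 305 UMIs in DLL1-positive and 397 in paired cells; with both copies summed the cynomolgus log2 ratio was -0.27 and the human one 0.47. DLK1, a secreted and membrane-bound relative of the ligands that lacks their Notch-binding domain, was level in human cells (2335 and 2330 CPM) and lower in DLL1-positive cynomolgus cells (1702 against 1987 CPM, -0.22). DLL3 was level in both (24.6 and 22.9 CPM, and 16.3 and 16.2 CPM). LFNG, a glycosyltransferase that tunes which ligands a receptor responds to, was level over all human pairs (23.7 and 23.8 CPM) and stood at 160 against 133 CPM in cynomolgus cells (0.26, ratio 1.12 to 1.29). In human cells with at least 2 DLL1 UMIs the log2 ratio of LFNG was 0.66. MIB1, the ubiquitin ligase that makes ligands active in the sending cell, was level in both (log2 ratio 0.02).

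Among the receptors, NOTCH1 had log2 ratios of -0.13 and 0.10 in human and cynomolgus cells, NOTCH2 of 0.04 and 0.18, and NOTCH3 of -0.18 in human cells. RBPJ, the DNA-binding partner of the cleaved receptor, had ratios of -0.12 and 0.05, and MAML2, a coactivator of that complex, of 0.27 and -0.14. The signs were thus opposite in the species for NOTCH1, RBPJ and MAML2, all at less than 1.5-fold; these differences between species were not tested.

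Notch target genes, which report signal received, were not detectably different over all pairs. Their summed CPM ratio was 0.943 (0.875 to 1.02) in human and 0.962 (0.892 to 1.04) in cynomolgus cells. Over 4 human genes the median log2 ratio was -0.10; of the list only HES1 reached 10 CPM in cynomolgus cells, with -0.06. HES1, a repressor of proneural genes, stood at 82.0 against 83.6 CPM in human and 112 against 116 CPM in cynomolgus cells. HES4 stood at 41.5 against 46.8 CPM and HES5 at 19.3 against 23.4 CPM in human cells (-0.27, ratio 0.660 to 1.03), and NRARP, a feedback inhibitor of Notch, at 26.1 against 25.6 CPM. HES5 on the cynomolgus copy had 4 and 6 UMIs, with 76.2% of the gene's UMIs on the human copy, and JAG2, NEURL1B, NOTCH3, HES4 and NRARP had no symbol in the cynomolgus annotation.

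With more DLL1 UMIs some commitment genes stood further from the paired cells and others did not. TAGLN3 in cynomolgus cells had log2 ratios of 0.42, 1.18 and 1.91 in cells with 1, 2 and at least 3 DLL1 UMIs, from 16.7 against 12.3, 30.1 against 12.7 and 37.5 against 9.30 CPM. In human cells it had 0.34 with 1 DLL1 UMI (18 against 14 CPM) and 1.41 with 2 or more (28.4 against 10.1 CPM). With partners drawn anew for the same 161 human cells, the latter was 1.09 (28.4 against 12.9 CPM). HES6 reached 38.5 against 19.3 CPM (0.96) and JAG1 65.1 against 29.4 CPM (1.12) in human cells with 2 or more. EBF1 in cynomolgus cells had 0.13, 0.71 and 0.72, and SRRM4 there 0.20, 0.76 and 0.54. HES6 in cynomolgus cells followed no such order (0.25, 0.04 and 0.50). In human cells EBF1 went from 0.54 with 1 UMI to -0.00 with 2 or more, and SOX4 from 0.06 to -0.02. Of the 76 and 52 human EBF1 UMIs, 70 and 46 lay in the class with 1 DLL1 UMI and its partners. The EBF1 value with 2 or more thus rests on few UMIs. The classes were each compared with their own partners, and they share the library.

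The lists differed in how their summed levels followed the number of DLL1 UMIs. The summed CPM ratio of the commitment list was 1.10, 1.30 and 1.33 in cynomolgus cells with 1, 2 and at least 3 DLL1 UMIs, and 1.03 and 1.11 in human cells with 1 and with 2 or more. The S phase ratio was 0.938, 0.925 and 0.862 in cynomolgus cells, and 0.944 and 0.792 in human cells. The neuron list stood at 1.10, 1.15 and 1.12 in cynomolgus cells, with no order, and at 1.00 and 1.16 in human cells. The G2 and M phase ratio was 0.983, 0.993 and 1.11 (1.09 to 1.14) in cynomolgus cells, and 1.10 and 1.14 in human cells. The ratio of the Notch targets was 0.944 and 0.938 in human cells and 1.03, 0.883 and 0.758 (0.599 to 0.959) in cynomolgus cells, and HES1 there had log2 ratios of 0.07, -0.23 and -0.47. DLK1 went from -0.16 to -0.29 and -0.50 in the same classes. The classes with more UMIs were small, 161 human and 141 cynomolgus pairs in the highest class, so their single-gene ratios rest on few UMIs.

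**Figure D3:**
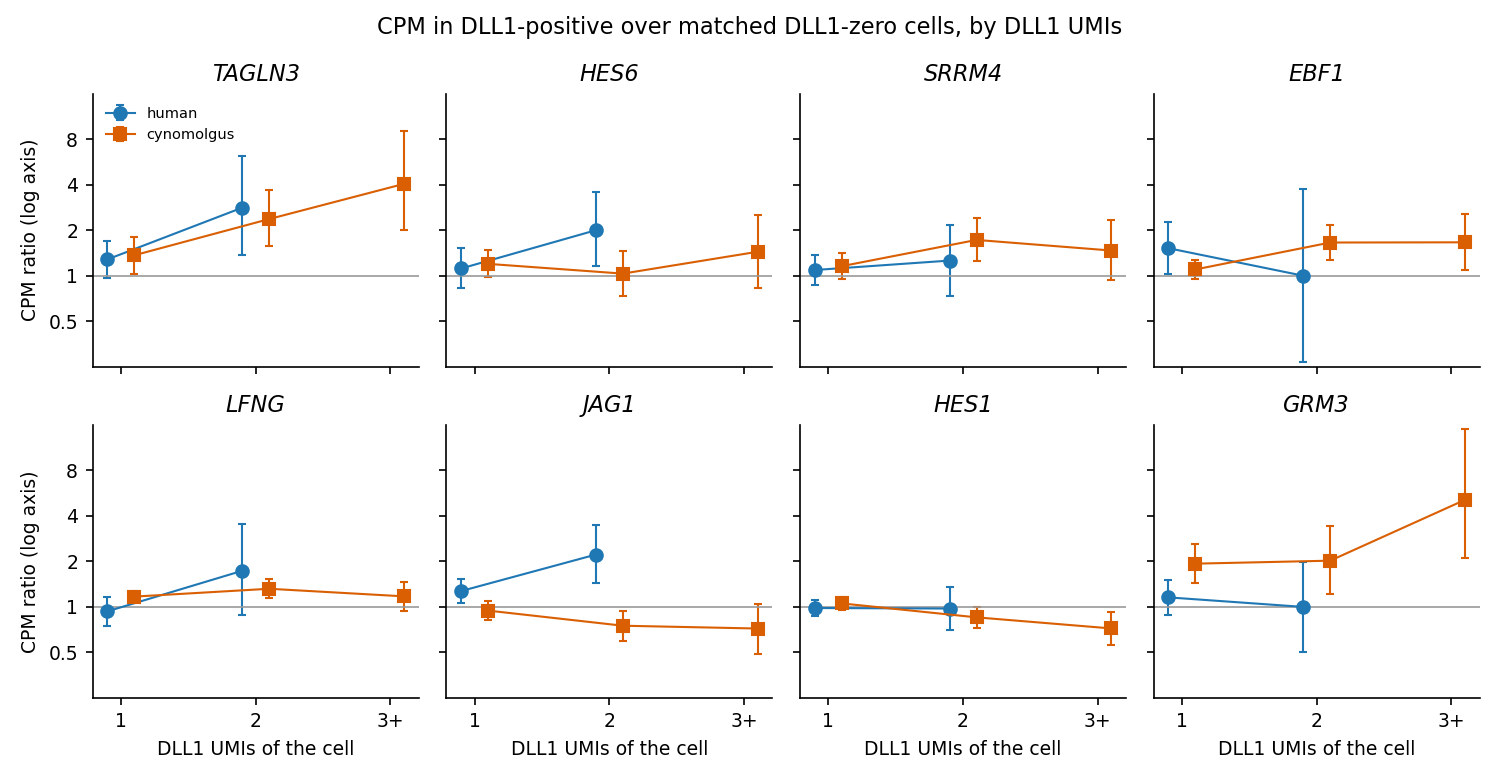
Ratio of CPM, DLL1-positive over paired cells (log axis), for 8 genes by the number of DLL1 UMIs in the positive cell (1, 2, and 3 or more for cynomolgus cells; 1, and 2 or more for human cells), with exact counting intervals. TAGLN3 moves away from 1 with each step in both species, while JAG1 is above 1 in human and below 1 in cynomolgus cells with 2 or more UMIs.

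Ranked with list members included, the human genes at 20 CPM or more with the highest ratios had varied functions. DACH2, a nuclear factor of the dachshund family, stood at 26.8 against 17.1 CPM (0.62, ratio 1.26 to 1.96), FOXO1, a forkhead factor of insulin signalling, at 34.9 against 23.4 CPM (0.56), and MT2A, a metallothionein, at 87.9 against 59.9 CPM (0.55), with 68 of its UMIs in a single cell. KIF20A and HMMR of mitosis, JAG1, and ANKRD37 and ERO1A, both known hypoxia-responsive genes (0.43 each), were among the 12 highest, with YPEL2 (0.47), ZNF786 (0.46), MCF2L2 (0.42) and MYO5C (0.41). The hypoxia list as a whole had medians of 0.06 and 0.04. The 8 lowest were RFC5, PRKCB (-0.49), ASF1B, NUDT11 (-0.47), SMYD2 (-0.46), FPGS (-0.44), EMP2 (-0.43) and CABLES1 (-0.43). Of these 20 human genes only DACH2 passed 1.5-fold. Over the alternative settings the log2 ratio of MT2A ran from 0.08 to 0.95 and that of ERO1A from 0.06 to 0.46.

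The cynomolgus genes with high ratios included factors and adhesion molecules of the developing brain. GRM3, a metabotropic glutamate receptor, stood at 19.3 against 9.01 CPM (1.02, ratio 1.68 to 2.74) and was found in 180 against 80 cells. Its log2 ratio was 0.88, 0.94 and 2.16 with 1, 2 and at least 3 DLL1 UMIs, and 0.17 in human cells. Over the alternative settings, which include at least 3 DLL1 UMIs with partners drawn anew, the cynomolgus value ran from 0.81 to 1.98. HS3ST5, a heparan sulfate 3-O-sulfotransferase, stood at 40.5 against 26.5 CPM (0.60, ratio 1.32 to 1.78). KIRREL3, an adhesion molecule of synapses, stood at 102 against 69.9 CPM (0.53, ratio 1.33 to 1.59), while in human cells KIRREL3 stood at 22.8 against 29.1 CPM (-0.34); this difference between species was not tested. BARHL1, a homeobox factor of the diencephalon and hindbrain, stood at 66.2 against 49.3 CPM (0.42, ratio 1.2 to 1.5); no BARHL1 UMI was counted in 7974 human cells, which allows a share of cells with a UMI of up to 0.0376% and does not limit the share of cells that express it. IGFBP5, an abundant secreted protein that binds insulin-like growth factors, stood at 1443 against 1107 CPM (0.38). FEZF1, a zinc finger factor of the forebrain (0.46), TIAM2, an activator of RAC1 (0.46), KLHL14 (0.45), CNR1, a cannabinoid receptor (0.44) and RASGEF1B (0.39) were, with HS3ST5, KIRREL3, BARHL1, IGFBP5, LHX5, SRRM4 and NPPB, the 12 highest of the genes at 20 CPM or more. GRM3, TAGLN3 and ZNF565 lay under 20 CPM and so outside that ranking. FEZF1 held 33.4% of its UMIs on the human copy, where the order was opposite (137 UMIs in DLL1-positive and 163 in paired cells).

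NPPB, a natriuretic peptide, was high in few cells. It stood at 40.9 against 24.1 CPM (0.74), but was found in only 76 and 57 cells, and 10 cells held 72.5% of its UMIs among the DLL1-positive cells. With 2 or more DLL1 UMIs its log2 ratio was -0.14.

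The lowest cynomolgus ratios belonged to genes with a UMI in few cells, as was also true of GRM3 and TAGLN3 on the higher side. DBX1, a homeobox factor of neural progenitor domains, stood at 16.8 against 34.3 CPM (-0.99, ratio 0.408 to 0.584) and was found in 8.68 against 12% of cells. PAPPA, a protease of IGF-binding proteins, stood at 17.9 against 35.7 CPM (-0.96), FREM1, an extracellular matrix protein, at 16.7 against 30.7 CPM (-0.84), and NTN1, the guidance cue netrin 1, at 13.7 against 27.0 CPM (-0.94). KRT19, a keratin of simple epithelia, stood at 12.7 against 27.5 CPM (-1.06), from 126 and 141 cells, and 10 paired cells held 50.8% of its UMIs there. The log2 ratio of KRT19 was -0.06 with the second set of partner cells and -0.09 without cells that carried a CYP1B1 UMI. WFDC2, a secreted epithelial protein, stood at 21.4 against 36.5 CPM (-0.74); its log2 ratio was 0.04 with the second set of partner cells and 0.19 without cells that carried a CYP1B1 UMI. CYP1B1, a cytochrome P450 that can make retinoic acid, was the lowest of all at 4.37 against 24.2 CPM (-2.23, ratio 0.130 to 0.245), but 10 paired cells held 75.8% of its UMIs there, it was found in 41 and 62 cells, and with the second set of partner cells its log2 ratio was -0.54. Without CYP1B1-carrying cells, 7 cynomolgus genes in place of 13 were past 1.5-fold on the lower side.

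**Figure D4:**
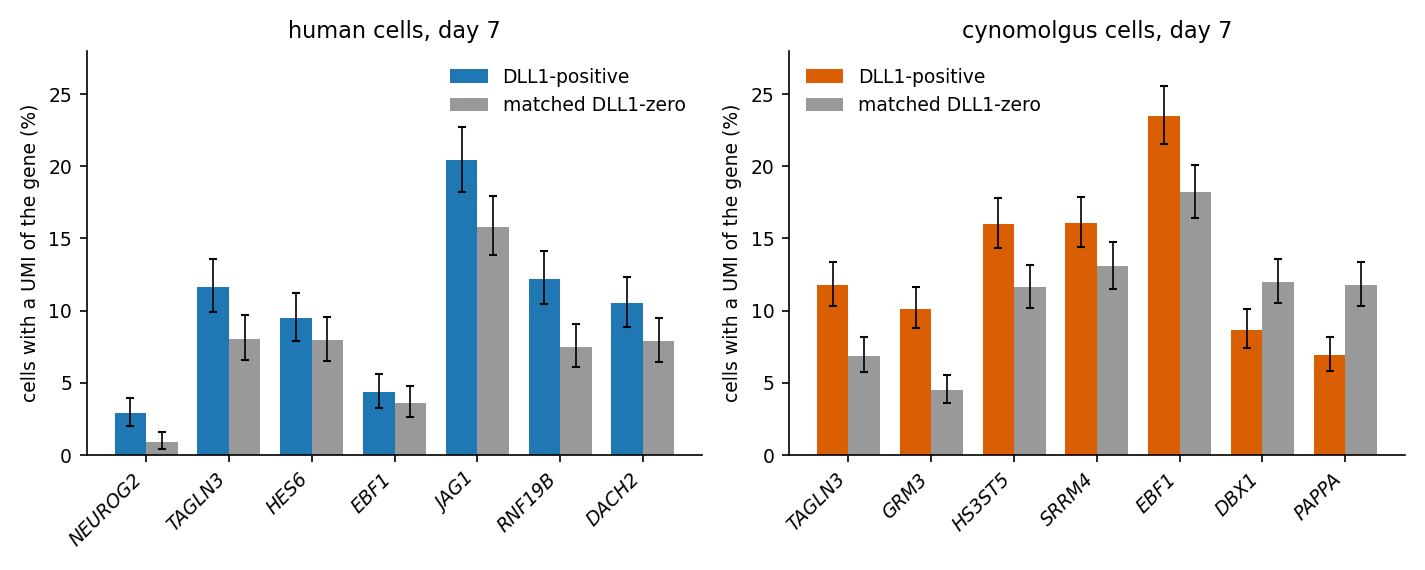
Percent of DLL1-positive and of paired DLL1-zero cells with at least 1 UMI of each gene, human (NEUROG2, TAGLN3, HES6, EBF1, JAG1, RNF19B, DACH2) and cynomolgus (TAGLN3, GRM3, HS3ST5, SRRM4, EBF1, DBX1, PAPPA), with exact binomial 95% intervals. The human NEUROG2 shares are 2.89 and 0.884%, and the cynomolgus GRM3 shares are 10.1 and 4.51%.

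By list medians, regional identity and markers of other cells differed little, apart from the midbrain and hindbrain list in human cells. Single regional factors, among them BARHL1 and DBX1, differed in cynomolgus cells as given above. In cynomolgus cells with 2 or more DLL1 UMIs the summed CPM ratio was 1.10 (1.04 to 1.16) for the diencephalic and 1.15 (1.01 to 1.31) for the anterior forebrain list. With at least 3 it was 1.03 (0.931 to 1.14) and 1.08 (0.850 to 1.37). The anterior forebrain list had medians of -0.04 in human and 0.12 in cynomolgus cells, over 6 and 4 genes, and the diencephalic list 0.10 and 0.05, over 4 and 5 genes. The midbrain and hindbrain list had a human median of -0.23, over 2 genes that were both below 0. Its summed CPM ratio in human cells was 0.888 (0.757 to 1.04), and no gene of it reached 10 CPM in cynomolgus cells. In cynomolgus cells WNT8B, a ligand of the dorsal forebrain, stood at 48.6 against 38.1 CPM (0.34), and EMX2, a dorsal forebrain homeobox factor with 77.6% of its UMIs on the human copy, at 14.3 against 10.8 CPM (0.37). Paraxial mesoderm genes, which accompany DLL1 in the presomitic mesoderm, summed to 91 against 78 UMIs in human and 107 against 112 UMIs in cynomolgus cells, with no gene at 10 CPM, and TBXT and MSGN1 were not counted in either group of either species, which allows shares of cells with a UMI of up to 0.241% in DLL1-positive human and 0.167% in DLL1-positive cynomolgus cells. Neural crest genes had medians of 0.05 and 0.00 over 3 and 2 genes. Pluripotency genes had medians of 0.01 and 0.06, and POU5F1 was found in 19 DLL1-positive and 23 paired human cells (1.53 and 1.85%).

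Transcripts that mark other cell classes were found in DLL1-positive cells and in their partners. FGF8 UMIs were found in 65.5 and 65.6% and SIX3 UMIs in 51.0 and 53.0% of human DLL1-positive and paired cells. In cynomolgus cells PAX6 was found in 45.2% (42.9 to 47.5%) against 41.5% (39.2 to 43.9%) and BARHL1 in 28.6% (26.5 to 30.7%) against 23.0% (21.1 to 25%). The intervals overlapped for PAX6 and did not for BARHL1.

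Few genes were past 1.5-fold in either species, so little overlap could be seen. Among 7299 genes that had 1 symbol in both annotations and at least 10 CPM in both, 0 (0%) were past 1.5-fold on the higher side in both species and 0 (0%) on the lower side. Of the same genes only 2 human and 4 cynomolgus were past it on the higher side, and 5 and 4 on the lower side. Across these genes the log2 ratios had r = 0.08 and rho = 0.08, and 51.8% had the same sign; genes are not independent replicates, and both species came from 1 library. At a looser limit of 1.25-fold, 2 genes were higher in both, of 78 human and 39 cynomolgus genes, and 4 were lower in both, of 90 and 55.

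TAGLN3 led the genes that were higher in both species by the smaller of their ratios, followed by ACVR2A, an activin receptor (0.35 in each, 57.4 against 44.7 CPM in human and 63.6 against 49.7 CPM in cynomolgus cells), with HSD17B11, EGF, FAM76B, CYLD, ZNF605, SMOX, ZNF385B and GALNT10 after it. The lowest in both were SYNE1, a nuclear envelope protein (9.14 against 15.4 CPM, -0.69, and 42.8 against 55.1 CPM, -0.36), and TAGLN2, a transgelin of non-neuronal cells (-0.50 and -0.35), with PHF13, WDR76, STK32B, ATP8B2, XKR4, AFF3, MEGF6 and FREM2 after them. In human cells with 2 or more DLL1 UMIs the log2 ratio of SYNE1 was 0.29. With the second set of partner cells ZNF385B stood at -0.20 in human, EGF at -0.13 in cynomolgus and STK32B at 0.05 in human cells, opposite to their sign above. Among genes that lie near DLL1 in the genome, FAM120B had log2 ratios of 0.06 and 0.03 and ERMARD of 0.06 and 0.05. DYNLT2 had log2 ratios of 0.26 and 0.23, from 8.25 against 6.75 CPM in human and 11.5 against 9.64 CPM in cynomolgus cells. In human cells it lay under the 10 CPM limit, so it was not among the genes of the 90% range. In cynomolgus cells it lay above that range and under 1.5-fold.

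**Figure D5:**
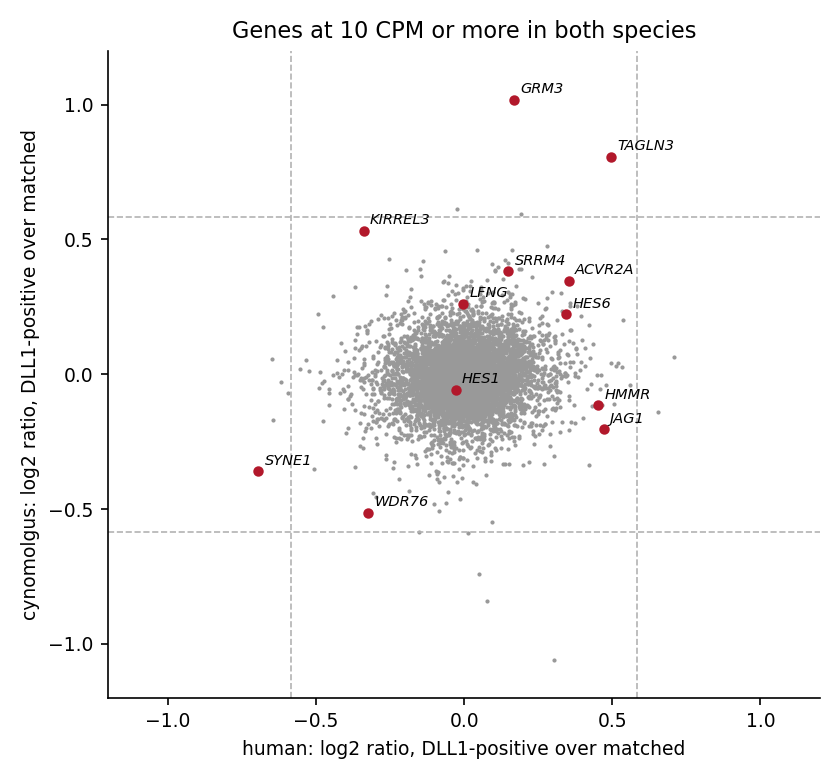
Log2 ratio of CPM + 1, DLL1-positive over paired cells, in human (x) and cynomolgus cells (y) for 7299 genes (1 point each), with 1.5-fold as dashed lines. No gene lies past 1.5-fold in the same direction in both species, and TAGLN3 (0.49, 0.81) has the highest value of the smaller ratio.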

How the data were processed

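The authors deposited a matrix of UMI counts per gene and barcode for each day, on a joint reference of both genomes. Per the file headers the matrices came from Cell Ranger 7.1.0, whereas version 7.2.0, with the human build GRCh38, is listed in the submitters' processing notes. Macaque gene names carry Macaca_fascicularis_6.0 of Ensembl release 107. Counts were summed over cells and scaled to 1000000 own-species, non-mitochondrial UMIs (CPM). Each DLL1-positive cell was paired with the nearest unused DLL1-zero cell within 5% of its total UMIs. Log2 ratios used a pseudocount of 1 CPM and genes with a mean of at least 10 CPM. With 1 library per day no test was made. Intervals are exact Poisson (CPM), exact binomial (shares) and exact conditional binomial (ratios) at 95%, for counting error only. Genes named beyond the 18 lists were, per species at 20 CPM or more, the 12 highest and 8 lowest ratios, and, across species, the 10 genes highest and the 10 lowest in both; other genes were named after their values were seen. The cells, lists and rules were chosen with earlier results of these data known. No doublet caller was run. Promoter sequences were not used here, so no motif search was made. Software was scipy 1.17.1 and numpy 2.4.6 under Python 3.11.15, with matplotlib 3.10.9 and pandas 2.3.3, and the scripts were tested on simulated data. One gene of the lists is not reported by name here.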

Additional observations from a re-analysis of the deposited data

Results flagged for a closer look

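JAG1, HMMR, CKAP2L, KIRREL3 and KRT19 had ratios of DLL1-positive to paired cells on opposite sides of 1 in the species, with counting intervals that excluded 1 in both; these differences between species were not tested. The cynomolgus log2 ratio minus the human one was -0.67 for JAG1, -0.57 for HMMR and -0.47 for CKAP2L, a mitotic spindle protein that stood at 38 against 31.4 CPM in human and 52.9 against 61.1 CPM in cynomolgus cells. The same difference was 0.87 for KIRREL3 and -1.36 for KRT19, whose human log2 ratio was 0.30, from 52.7 against 42.5 CPM. The cynomolgus value of KRT19 rests on few cells: 10 paired cells held 50.8% of its UMIs, and its log2 ratio was -0.06 with the second set of partner cells. The day 0 library, which enters no comparison of DLL1-positive with paired cells, also held cells with a DLL1 UMI: 3.511% of human and 0.795% of cynomolgus cells, above the 0.101% of human and 0 of 2013 cynomolgus day 0 cells that held a UMI of the other species' copy.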

How the results depend on the processing

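No paired analysis was possible because each day had 1 library. The DLL1-positive share of human cells was 16.98% at a minimum of 4000 UMIs, 14.65% without the top 5% of cells by UMIs, 6.394 and 11.53% when thinned to 2000 and 4000 UMIs, and 2.019 and 0.2508% for at least 2 and 3 DLL1 UMIs. The cynomolgus share was 31.66, 26.93, 13.33, 22.18, 8.458 and 2.333% in the same order, and 17.14% with the species call at 95%, which left only 70 cells and no other value. Human genes past 1.5-fold, 4 higher and 7 lower, became 490 and 481 with at least 2 DLL1 UMIs (161 pairs), 10 and 14 without the deepest 5%, 19 and 24 at 5 CPM, 0 and 0 at 50 CPM, at 2-fold and with all zero cells weighted in UMI bins. The lower count was 4 with DLL1 copies of both genomes, 3 with the second matched set, 1 with no matching and 12 with a pseudocount of 0.1. Human genes tested numbered 9629 in the main comparison, 9631 with at least 2 DLL1 UMIs and 9627 without the deepest 5%. At 5 and 50 CPM they numbered 11195 and 4459. Cynomolgus genes, 5 higher and 13 lower, became 40 and 71 with at least 2 DLL1 UMIs (525 pairs), 3 and 8 with no matching, 0 and 0 at 50 CPM, and 1 and 3 at 2-fold. The higher count was 3 with the species call at 80%, 3 with UMI bins, 9 with the second matched set and 12 at 5 CPM. Cynomolgus genes tested numbered 9201 in the main comparison, 9198 with at least 2 DLL1 UMIs, and 10609 and 4632 at 5 and 50 CPM. Alternatives chosen after seeing the data were at least 3 DLL1 UMIs (144 cynomolgus pairs, 347 higher and 345 lower; 20 human cells, not fitted), cells without a CYP1B1 UMI (7 cynomolgus genes lower), cells without a NEUROG2 UMI, and copies of both genomes summed. Genes higher in both species numbered 3 with at least 2 DLL1 UMIs (SUN2, TAGLN3 and ZNF226) and 1 with the second matched set (VCPIP1), in place of 0. The commitment median was 0.2477 in human and 0.6527 in cynomolgus cells with at least 2 DLL1 UMIs, and 0.157 at 50 CPM and 0.9162 with at least 3 in cynomolgus cells. The neuron median was 0.2372 in human cells with at least 2, and 0.2338 at 50 CPM and 0.1635 with at least 3 in cynomolgus cells. Medians of the proneural list had no value, because no member reached 10 CPM. Among genes past 1.5-fold, signs reversed for SYNE1 in human cells (0.2944) and NPPB in cynomolgus cells (-0.1416) with at least 2 DLL1 UMIs, and for WFDC2 with the second matched set (0.04391) and without CYP1B1 cells (0.1903). Of 105 ratios of named genes, 24 changed sign in at least 1 setting, among them WDR76 (0.269, second matched set), CNR1 (-0.2724), PHF13 (0.1347) and SPON1 (0.09136), the last 3 with at least 3 DLL1 UMIs, in cynomolgus cells and MEGF6 (0.3156, at least 2) in human cells. The cause of these changes was not tested. Smaller classes and lower CPM limits rest on fewer UMIs per gene.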
